A study of Mus musculus with 4 samples.

Results

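The middle of the distal chromosome 7 region is a 450 kb stretch of mouse chromosome 7, from 137400000 to 137849999 in build mm6, that was tiled with 6122 of the array's 388160 tiling probes. Its members are all tiling probes whose identifier names chromosome 7 and whose position falls between these limits, and 6094 of them belong to the most distal tiled region of the chromosome (136488552 to 138655803) while 28 carry no region label. Circular chromosome conformation capture (4C) recovers DNA fragments that lie close in the nucleus to 1 chosen locus, the bait, here the H19 ICR. The cells compared were R1, a mouse embryonic stem (ES) line, and embryoid bodies (EB) obtained from ES cells by 12 days of differentiation in vitro, with 2 arrays of each state and with each replicate a pool of 3 independent samples. No other genotype, strain or treatment is named. Each array carried 4C product labelled with Cy5 and MboI-digested input DNA of the same cells labelled with Cy3. The comparison is limited to cells of this kind in culture.

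The H19 ICR is an imprinting control region: the insulator protein CTCF binds it on the maternal chromosome, where H19 is expressed, and its methylation on the paternal chromosome accompanies expression of Igf2, a fetal growth factor. Beyond Igf2 on the same chromosome lies a second imprinted neighbourhood around Kcnq1, a potassium channel gene, whose control region is the promoter of the antisense RNA Kcnq1ot1. In the RefSeq gene order (assembly GRCm38.p6), H19 is followed by Igf2, Ins2, Th, Ascl2, Tspan32, Cd81, Tssc4, Trpm5, Kcnq1 with Kcnq1ot1, and Cdkn1c, a growth-restraining cell cycle inhibitor. That assembly differs from mm6, so no gene is assigned to a position here, and the sources used here do not place the bait itself on this scale. Distances are therefore measured from the longest site with 4C signal on all 4 arrays (136992893 to 136997567, 119 probes), whose centre lies 405 kb before the start and 855 kb before the end of the stretch.

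In ES cells the stretch held discrete, short patches of 4C signal, and in embryoid bodies no run of positive probes was found. Values given as a pair are replicate 1 and then replicate 2. Signal is the log2 intensity of the Cy5 channel minus the median of all tiling probes of that array. Positive probes were those at or over 1 log2 unit (2-fold), and 3 or more of them in a row, none more than 300 bp from the next, made a run. Runs took up 2.70% of the probes (165 probes in 17 runs) on ES replicate 1 and 4.28% (262 probes in 22 runs) on ES replicate 2. On EB replicate 1 and EB replicate 2, 0 probes lay in runs. Outside the distal region the shares were 0.0566% and 0.101% in ES and 0.0361% and 0.0458% in EB, so that 0% was close to the EB level elsewhere. The ES and EB arrays did not overlap outside that region either. In the stretch the mean share was 3.49% ± 1.12 in ES and 0% in EB (SD, n = 2), without overlap. The difference, EB minus ES, was -3.49 percentage points, and -2.70 within replicate 1 and -4.28 within replicate 2. With 2 arrays against 2, the exact permutation test (two-sided) gave p = 0.33, the smallest value it can give. EB stayed at 0% on both arrays after quantile normalization (ES 2.58% and 3.79%) but not under 2 other treatments of the channel. After normexp background correction the shares were 4.38% and 6.96% in ES against 0.131% and 4.05% in EB, and for the ratio of 4C to input they were 3.17% and 3.90% in ES against 3.01% and 0% in EB.

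The ES signal filled a small part of the stretch, and the rest lay near the array median in both states. Over all 6122 probes the ES arrays averaged 0.13 and 0.25 log2 units and the EB arrays 0.013 and 0.10. EB minus ES was -0.13 (exact permutation p = 0.33, n = 2 per group). The medians were 0.022 and 0.073 in ES against 0.0076 and 0.048 in EB, so that within each state replicate 2 lay higher than replicate 1. Arrays of the same replicate number were extracted with the same NimbleScan version and carry the same day in their file headers. The median intensity of the stretch was higher for replicate 2 in both states: 984 and 1600 units for ES, 545 and 1693 for EB. Of the summed difference between ES and EB, 71.9% came from the 165 probes (2.70% of the stretch) that form the sites described next. Those probes were picked for high values on these same arrays, so that a large share follows in part from the choice. Outside these probes the mean was 0.049 and 0.14 in ES against 0.013 and 0.100 in EB.

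**Figure D1:**
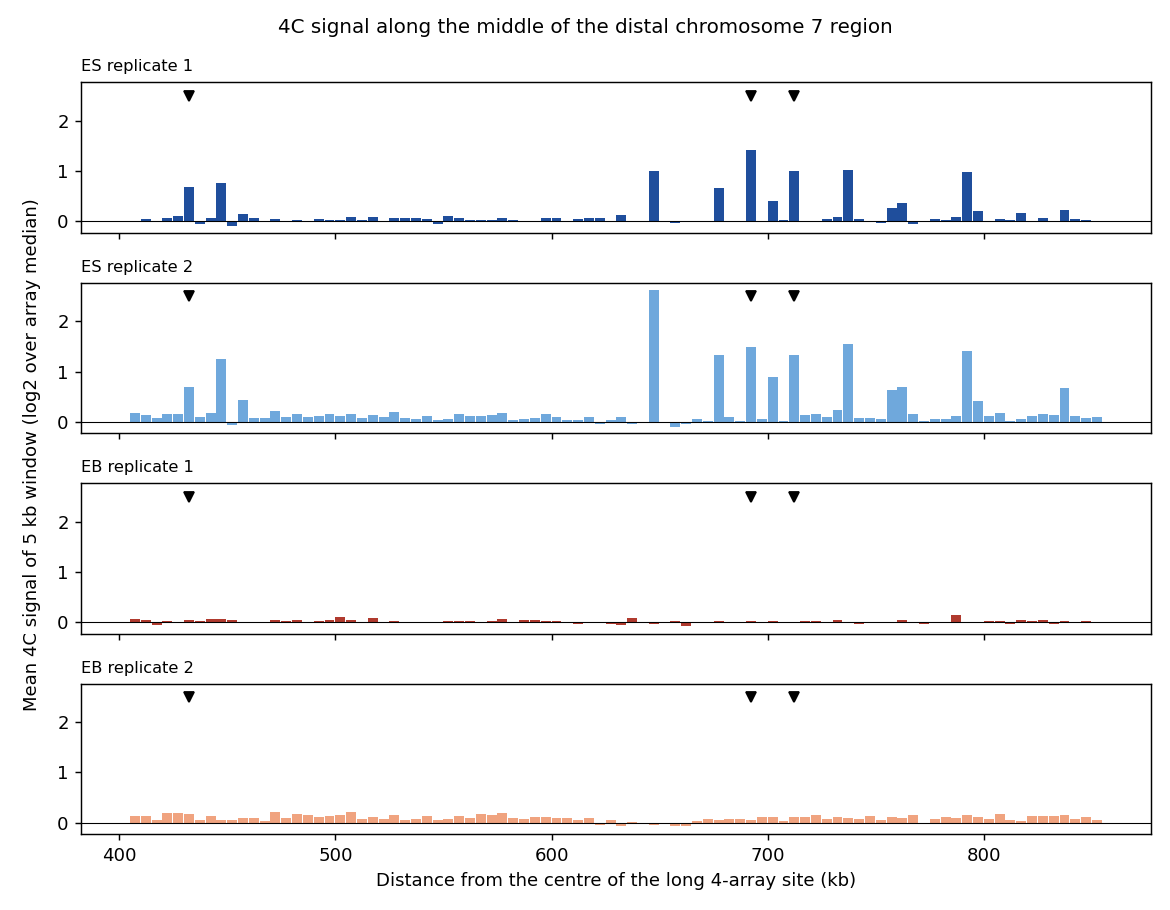
Mean 4C signal (log2 over the array median) of each 5 kb window along the stretch, in 1 panel per array, against distance in kb from the centre of the longest site positive on all 4 arrays. Black triangles mark the 3 windows called lower in EB by limma. The bars of ES replicates 1 and 2 rise in the same few windows, up to 1.42 and 2.63 log2 units, while no window of the EB arrays exceeds 0.14 and 0.21.

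Sites were runs built from probes positive on 2 or more of the 4 arrays; the stretch held 16, and each of them was positive on both ES arrays and on neither EB array. Sites were chosen on these same values, so that they are described without a test. Numbered from 1 to 16 along the chromosome, they held 165 probes in all and spanned 106 to 1818 bp (median 362). A site is a patch of tiled sequence over which captured fragments bound, and may cover 1 restriction fragment or several. Site means ranged from 1.22 to 5.37 log2 units on ES replicate 1 (median 2.16) and from 2.0 to 5.21 on ES replicate 2 (median 3.75). On EB replicate 1 they ranged from -0.18 to 0.25 and on EB replicate 2 from -0.12 to 0.28. The highest EB mean of any of the 16 sites was 0.28, while the lowest ES mean was above the 2-fold level. With EB set at the 2-fold level, ES exceeded EB at the sites by at least 1.53- to 17.5-fold (median 4.55).

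The longest site was site 15, from 137788576 to 137790393, with 35 probes. Its mean signal was 2.98 and 4.14 log2 units on ES replicates 1 and 2, against -0.017 and 0.10 on EB replicates 1 and 2. Every probe of it was positive on both ES arrays and none was positive on an EB array, since the ES minima were 1.23 and 1.11 and the EB maxima 0.37 and 0.87. Site 7, from 137685757 to 137687227 (26 probes), was the brightest of the 3 longest sites, with 4.67 and 5.10 log2 units in ES against -0.0014 and 0.13 in EB. Site 9, from 137708167 to 137709152 (26 probes), had 3.15 and 4.32 in ES against 0.022 and 0.23 in EB. Site 9 was uneven on ES replicate 1, where its probes ran from 0.89 to 5.16. The probes next to sites 7 and 9 were far lower than the sites themselves. The probe before site 7 had 0.083 and 0.19 in ES and the probe after it 1.05 and 0.68. The probes on either side of site 9 had -0.067 and 0.16, and 0.14 and -0.042. Not every site had such low neighbours on ES replicate 2. Over all sites, the probes just before and after lay under 1 log2 unit in 29 cases on ES replicate 1. On ES replicate 2 they did so in 13 cases, and on each EB array in 32. Many site limits, and so the spans, were therefore set by where ES replicate 1 fell under the 2-fold level.

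Site 11, from 137732673 to 137733346 (13 probes), had 2.36 and 3.80 log2 units in ES against 0.0091 and 0.081 in EB. It formed 1 neighbourhood with site 10, from 137731748 to 137732057 (6 probes, 3.30 and 3.64 in ES, 0.0075 and 0.21 in EB), and with site 12, from 137733401 to 137733866 (9 probes, 1.81 and 3.22 in ES, -0.032 and 0.100 in EB). Sites 11 and 12 lay 0.054 kb apart, split by a probe with -0.074 on ES replicate 1 and 1.46 on ES replicate 2. Site 6, from 137673333 to 137673590 (5 probes), had 2.96 and 4.38 in ES against -0.080 and -0.12 in EB. It lay 0.054 kb from site 5, and the probe between them had 0.94 and 3.55 in ES. Neighbouring sites like these are not independent, and their number depends on single probes near the 2-fold level.

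**Figure D2:**
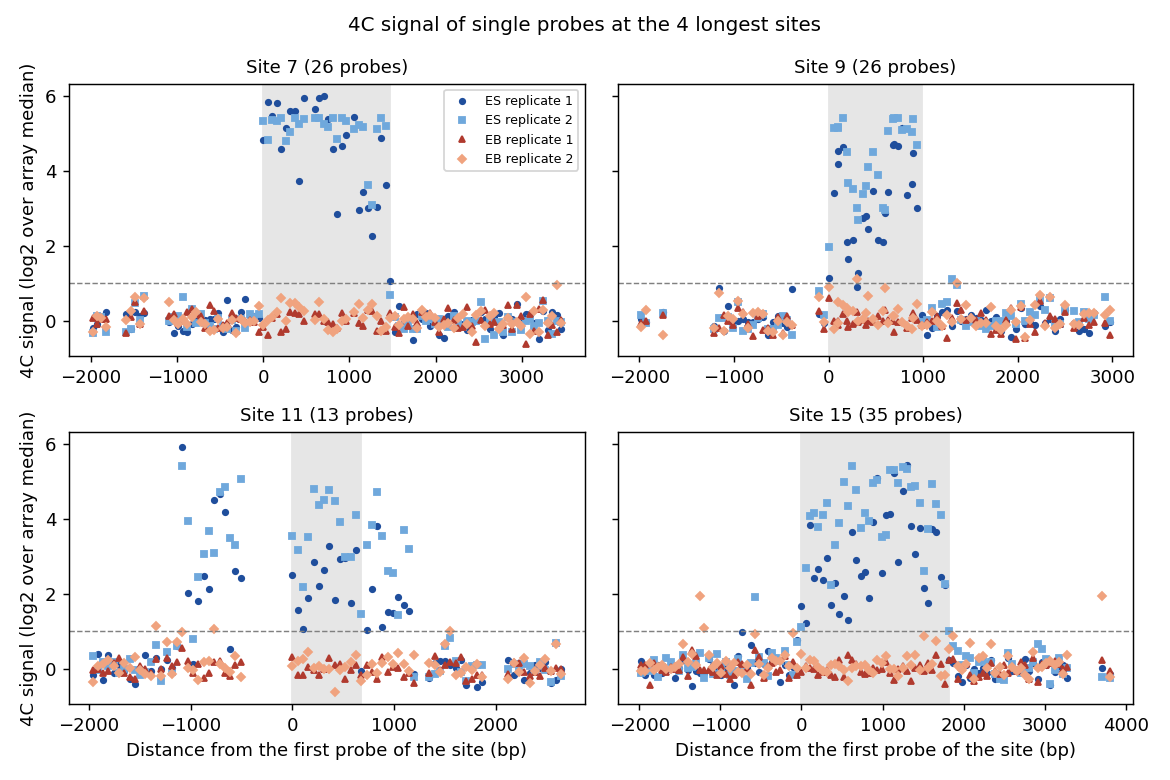
4C signal (log2 over the array median) of every probe around the 4 longest sites, against distance in bp from the first probe of the site, with grey marking the site and the dashed line the 2-fold level. Both ES arrays rise inside each site, the EB arrays stay near 0, and the panel of site 11 also shows sites 10 and 12 on either side.

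Site 1, from 137428482 to 137429112 (11 probes), lay nearest to the reference site, at 434 kb. It had 5.37 and 4.89 log2 units in ES against 0.25 and 0.28 in EB. It was the only one of the 16 sites with a higher mean on ES replicate 1 than on ES replicate 2. On each ES array, 10 of its 11 probes came within 2-fold of the brightest value the scanner recorded. At these probes at most a 2-fold higher signal could be seen. The highest probe of site 1 was at that value on ES replicate 2 (5.43 log2 units) and just under it on ES replicate 1 (6.01 against 6.08). Site 3, from 137642964 to 137643592 (5 probes), had 1.91 on ES replicate 1 and 5.21 on ES replicate 2, the largest gap between the ES arrays, with -0.0046 and 0.15 in EB. All 5 of its probes lay near the limit on ES replicate 2 and 0 on ES replicate 1, so its height is known within a wide range only. Site 14, from 137758112 to 137758525 (8 probes), had 1.83 and 2.60 in ES against -0.069 and 0.15 in EB. The other 6 sites held 3 or 4 probes each, with 1.22 to 2.54 log2 units on ES replicate 1 and 2.0 to 4.03 on ES replicate 2.

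**Figure D3:**
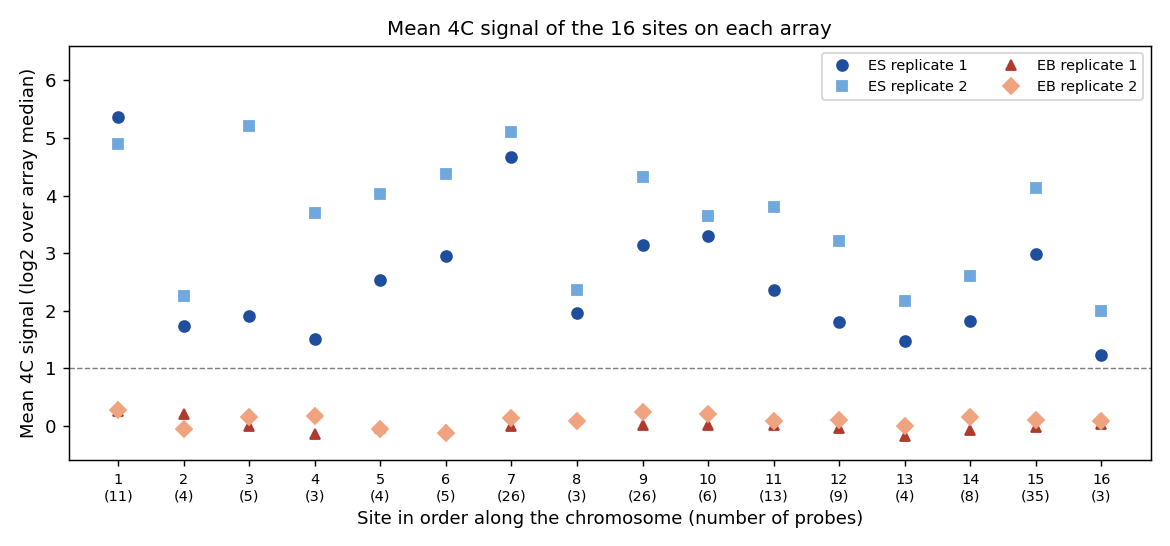
Mean 4C signal (log2 over the array median) of the 16 sites, in order along the chromosome, with the number of probes in brackets and 1 point per array. The dashed line marks the 2-fold level. At every site both ES points lie above the line and both EB points at or below 0.28.

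The ES arrays placed their signal on nearly the same probes but at different heights. Of the 165 probes in runs on ES replicate 1, 164 were also in runs on ES replicate 2, which is 99.4% of the first set and 62.6% of the second. ES replicate 2 had a higher site mean at 15 of the 16 sites, with a median excess of 0.97 log2 units. Differences at the brightest sites are limited by the ceiling, which differs between these arrays: site 1, near it on both, gave -0.48, and site 3, near it on ES replicate 2, gave 3.30. It also had 8 runs that overlapped no site. The highest of these lay from 137452133 to 137452432 (3 probes), with 3.85 on ES replicate 2, 1.84 on ES replicate 1, and -0.17 and 0.022 in EB. In the others the mean on ES replicate 1 was 0.47 to 1.16. Over the 165 site probes the ES arrays correlated at Pearson's r = 0.74, a description across probes of the same fragments and not across samples. Probes near the upper limit, which lay 6.08 and 5.43 log2 units above the median on the ES arrays, numbered 26 and 79 within the sites, and 0 on each EB array.

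In embryoid bodies the site probes lay at the level of the rest of the stretch. Over the 165 site probes, the mean EB signal was 0.0091 and 0.13 log2 units, against 0.013 and 0.100 over the other 5957 probes of the stretch. EB replicate 1 thus had slightly less signal in the sites than outside them and EB replicate 2 slightly more, both by under 0.03 of a log2 unit. In ES the same comparison was 3.09 and 4.06 inside against 0.049 and 0.14 outside. Of the 165 site probes, 0 were positive on EB replicate 1 and 3 on EB replicate 2, with a highest value of 1.47. The precision of these values is limited by the number of arrays, and fewer cells with a contact cannot be told apart from a weaker contact in each cell.

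The sites lay in groups with long intervals without a site between them. When sites at most 25 kb apart were joined, a group of 11 sites with 107 probes spanned 86.6 kb, from 137671972 to 137758525. A group of 2 sites lay at the start, from 137428482 to 137440897, and sites 3, 15 and 16 stood alone. Between sites 2 and 3 lay 202 kb with 2659 probes (133 kb of tiled sequence) and no site. In that interval 0 probes on ES replicate 1 and 9 on ES replicate 2 lay in runs, and the mean signal was 0.046 and 0.12 in ES against 0.019 and 0.11 in EB. In bins of 50 kb, 0 probes were in runs on any of the 4 arrays from 137500000 to 137549999 (689 probes) and from 137550000 to 137599999 (781 probes). By the mean of the ES arrays the highest bins were 137750000 to 137799999, with 6.88% and 10.5% on the ES arrays, and 137650000 to 137699999, with 6.12% and 11.2%. Along this scale the ES signal did not fall steadily with distance from the reference site, since its bins rose again beyond the interval without a site. Tiling left gaps, which bounds what could be seen: 67.7% of the stretch was covered by probes, and the largest gap was 12.2 kb.

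Over 5 kb windows of the whole array, limma called 3 of the 89 windows of the stretch lower in EB and 0 higher in EB (adjusted p under 0.05, 2 arrays per group). Across all 7044 windows 0.838% were called lower in EB and 0.128% higher, so that the 3 windows are 3.37% of the stretch beside 0.838% of the array. Most calls of the array lay in the distal region. There 52 of 426 windows (12.2%) were called lower in EB, a larger share than in the stretch, against 7 of 6618 (0.106%) outside it. The first called window, starting at 137685000, holds site 7 and had means of 1.42 and 1.48 log2 units in ES against 0.024 and 0.059 in EB. EB minus ES was -1.41 ± 0.038 SE (limma adjusted p = 0.00031). Of the 26 probes of site 7, 12 and 24 were near the upper limit in ES, where at most a 2-fold higher signal could be seen. A second, starting at 137705000, holds site 9 and had 1.0 and 1.34 in ES against -0.0024 and 0.10 in EB (EB minus ES -1.12 ± 0.11 SE, limma adjusted p = 0.022). The window starting at 137425000 holds site 1 and had 0.68 and 0.70 in ES against 0.050 and 0.17 in EB (EB minus ES -0.58 ± 0.048 SE, limma adjusted p = 0.0098). Of the 11 probes of site 1, 10 were near the upper limit on each ES array. How far this limit narrowed the spread of the ES arrays, and so the SE, was not tested for the called windows. In each of them the ES arrays lay above the EB arrays without overlap.

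The window with the largest difference was not called. The window starting at 137640000, with site 3, had 1.01 and 2.63 in ES against -0.042 and -0.044 in EB, a difference of -1.86 ± 0.51 SE (limma adjusted p = 0.62). The windows with sites 10 to 12 (starting at 137730000, EB minus ES -1.23) and with most of site 15 (starting at 137785000, -1.13) had limma adjusted p of 0.073 and 0.057. With the replicate number as a block, 5 windows were called, including the 3, beside 1.15% of the array. Without ES replicate 1 the count was 13 (2.07% of the array) and without ES replicate 2 it was 8 (1.58%). Without EB replicate 1 or EB replicate 2 it was 2 (0.511% and 0.539%), so that the count over the array moved the same way. The call at 137705000 was lost without EB replicate 1 (limma adjusted p = 0.12), without EB replicate 2 (0.082), with robust eBayes (0.11) and for the ratio to input (0.068). The call at 137425000 was lost with 10 kb windows (limma adjusted p = 0.17), after normexp (0.27) and for the ratio (0.38). With the median of the probes in place of the mean, 0 windows of the stretch were called (0.0994% of the array). For the ratio of 4C to input 2 were called, of which 1 was among the 3, beside 0.497% of the array.

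The states did not overlap, with ES higher, in 20 of the 89 windows (22.5%), and with EB higher in 2. Over the whole array these shares were 15.7% and 9.95%. All 13 windows that hold a site were among the 20, which the choice of sites on these same values favoured, and 7 had no site. In the 76 windows without a site the means ran from -0.087 to 0.17 on ES replicate 1, -0.096 to 0.43 on ES replicate 2, -0.079 to 0.14 on EB replicate 1 and -0.077 to 0.21 on EB replicate 2. Away from the sites the ranges of the states overlapped, and the medians of these windows followed the replicate number (0.024 and 0.011 for replicate 1, 0.092 and 0.090 for replicate 2) more than the cell state.

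The mean input signal of the stretch, centred on the array median, was 0.47 and 0.35 log2 units in ES against 0.40 and 0.29 in EB, and at the site probes it was 0.82 and 0.49 in ES against 0.56 and 0.50 in EB. By limma, 0 of the 7044 windows differed in input between the states (adjusted p under 0.05). Of the 89 windows of the stretch, 1 had an unadjusted p under 0.05, a level for which the share of the array is not given here. The input was above the median of the array here, and as a whole the stretch had a mean log2 4C to input ratio of -0.36 and -0.14 in ES against -0.38 and -0.23 in EB. EB minus ES of that ratio was -0.051 (exact permutation p = 0.67), and it was 0.054 without ES replicate 2 and 0.023 without EB replicate 1.

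Site by site, the ratio to input set some sites apart. Read as a ratio, 11 of the 16 sites were above the 2-fold level on both ES arrays and on neither EB array, and at 15 the ES values were above the EB values without overlap. Sites 2, 8, 14 and 16 lay on probes with bright input, from 1.09 to 3.41 log2 units over the median on all arrays, and were picked out after their values were seen. Their ratios were negative on ES replicate 1 (-0.17 to -2.20) and lower in EB (-1.04 to -2.88). On ES replicate 2 they were positive at sites 8 (0.95) and 14 (0.53) and negative at sites 2 (-0.56) and 16. At site 16, from 137834704 to 137834809, the 4C signal of 1.22 and 2.0 in ES thus stood on input of 3.41 and 3.09, with a ratio of -2.20 and -1.13 in ES against -2.88 and -2.69 in EB. At site 7 the ratio was 3.76 and 4.61 in ES against -0.82 and -0.55 in EB. Site 13 was the exception among the 16, with ratios of 0.23 and 1.99 in ES against -0.32 and 0.23 in EB.

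The 28 probes without a region label fell at 6 loci of the stretch, where they overlap labelled probes in position. The sources used here do not say what these probes were designed for. Of the 6 loci, 2 coincided with a site. The 7 unlabelled probes from 137708263 to 137709112, within site 9, had means of 3.20 and 4.30 in ES against 0.037 and 0.38 in EB. The 17 labelled probes over the same span had 3.23 and 4.43 in ES against -0.018 and 0.16 in EB. The 3 unlabelled probes from 137834560 to 137834809, partly within site 16, had 0.90 and 1.76 in ES against -0.053 and 0.22 in EB. The other 4 loci, of 1 to 6 probes, had means between -0.44 and 0.21 on all arrays.

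Compared with the tiled parts on either side, the stretch had fewer probes in runs than the part nearer to the signal peak and slightly more than the part beyond it on both ES arrays. The nearer part ran from 137050000, the end of the 2 adjacent 50 kb bins with the highest ES share, to 137399999 (3938 probes). It had 8.08% and 10.5% of its probes in runs in ES against 0.254% and 0.686% in EB. The farther part, from 137850000 to 138655803 (9957 probes), had 1.98% and 2.82% in ES against 0% and 0.0301% in EB. The gap between the stretch and the nearer part was -5.79 ± 0.585 percentage points in ES and -0.470 ± 0.305 in EB (SD, n = 2). It differed between the states by 5.32 points (exact permutation p = 0.33, the smallest possible). Against the farther part the gap was 1.09 ± 0.524 points in ES and -0.0151 ± 0.0213 in EB, a difference of -1.10 points between the states (exact permutation p = 0.33). The ES gap to the farther part lay above 0 on both ES arrays, at 0.717 and 1.46 points.

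**Figure D4:**
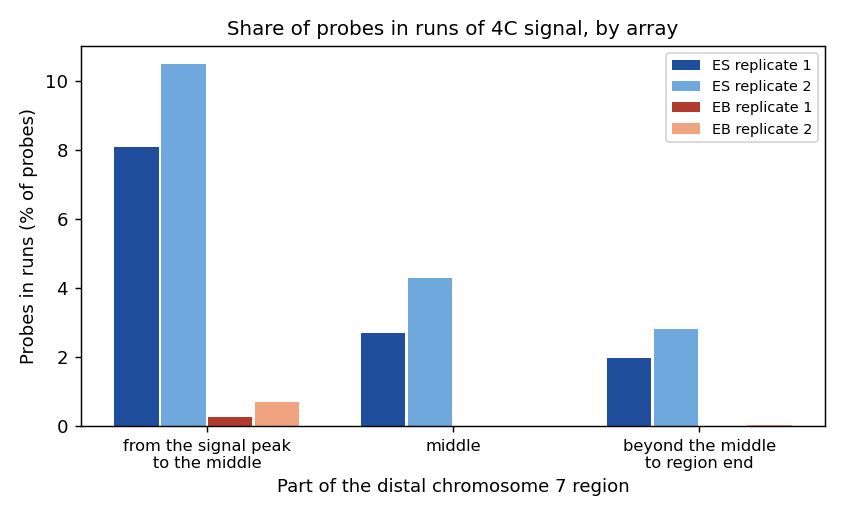
Share of probes in runs of 4C signal (percent of probes) on each array, in the tiled part from the signal peak to the stretch, in the stretch (middle) and beyond it to the end of the tiled region. Bars of the 2 ES arrays are highest in the first part, at 8.08% and 10.5%, and the stretch has no EB bar because its EB share is 0.

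Site density was 5.25 per 100 kb of tiled sequence in the stretch, 14.8 in the nearer part and 4.43 in the farther part. All 16 sites of the stretch and all 22 of the farther part were ES-only, whereas the nearer part held 25 ES-only sites, 1 EB-only site and 2 of other combinations. In the window test, 8 of the 66 windows of the nearer part (12.1%) and 11 of the 159 of the farther part (6.92%) were called lower in EB, against 3.37% in the stretch. At its limits the stretch cut through no site. The nearest sites outside lay 27.2 kb before its start (3.35 and 5.08 in ES, -0.034 and 0.055 in EB) and 17.4 kb beyond its end (1.60 and 2.96 in ES, -0.23 and -0.043 in EB). The 10 probes just inside the start averaged 0.063 and 0.42 in ES against 0.15 and 0.38 in EB, and the 10 just outside it 0.15 and 0.021 in ES against 0.13 and 0.17 in EB. At the other end the 10 probes inside averaged 0.0077 and 0.21 in ES against -0.10 and 0.046 in EB, and the 10 outside 0.014 and 0.027 in ES against -0.0042 and 0.042 in EB.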

How the data were processed

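The deposited tables list a scanner intensity for each probe in each channel, from NimbleScan (version 2.3.78 for both replicate 1 arrays and 2.3.18 for both replicate 2 arrays) per the file headers. The sources used here name no background correction or normalization by the authors. Of 389359 spots, 1193 random controls were left out and 6 repeated spots were averaged by probe. The median 4C intensity of tiling probes was 969 and 1521 units on ES replicates 1 and 2, 543 and 1638 on EB replicates 1 and 2, and that of random controls 963, 1481, 534 and 1607.

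The Cy5 channel was taken to log2 and centred on each array's tiling median. Means over 5 kb windows with at least 5 probes were fitted with limma 3.58.1 (lmFit, eBayes; R 4.3.3) over all 4 arrays without a block, two-sided, with Benjamini-Hochberg adjustment over all 7044 windows. Single values were tested by exact permutation. Probes near the scanner's limit lay within 2-fold of the highest intensity. Windows named by rule are all those called, and the windows named as not called were added for their large differences. Sites named by rule are the 10 with the most probes and any positive in EB (none was), and other sites were added after their values were seen. Data were read with Python 3.11.15 and pandas 2.3.3.

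Members and rules, including those for runs and sites, were chosen with earlier results of these data known. The window test of EB against ES was tested on simulated data (7044 windows): it called 60% of changes of 0.25 log2 units, 80% of 0.5 and 100% of 1 and 2, with 5 false calls. The changed windows were drawn from the whole array, with independent normal spread and no upper limit. These rates therefore do not carry over to windows with sites. In the stretch, differences of -1.86, -1.23 and -1.13 log2 units were not called. Arrays with the same replicate number also share the day in the file header, which is not said to be that of the scan. As a check of pairing, same-numbered arrays deviated from their groups with r = 0.16 over all windows and 0.036 over those of the stretch. No labels tie same-numbered pools to 1 culture. No mm6 annotation or probe sequence was used here, so no genes or sequences are assigned to sites.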

Additional observations from a re-analysis of the deposited data

How the results depend on the processing

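Alternatives were normexp, quantile and scale normalization, the ratio to input, leaving out probes of dim input, other windows, thresholds and run lengths, robust eBayes, the replicate block and leaving out each array. Windows of the stretch called lower in EB numbered 3. With the share of all windows of the array in brackets (0.838% for the 3), they were 6 with 2 kb windows (0.702%), 0 with the probe median (0.0994%), 7 with normexp (1.22%), 9 with quantile normalization (1.53%), 5 without dim probes (0.980%), 5 with at least 10 probes per window (0.919%), 5 with the replicate block (1.15%), and 2 to 13 without 1 array (0.511% to 2.07%). All 3 were called again with the replicate block. No alternative called a window higher in EB, and the cause of these shifts was not tested. The 3 named windows had negative differences in all 42 refits and lost their call in 10. These windows were chosen as lower in EB on the same arrays, which favoured the constant sign. By the probe median little difference remained (-0.010 at 137425000, -0.092 at 137685000), while 137425000 lost its call after normexp and for the ratio at differences of -0.61 and -0.53. Sites numbered 27 at 0.5 log2 units, 25 with runs of 2 probes, 10 with runs of 5, 46 with normexp (24 ES-only, 12 on both replicate 2 arrays alone) and 27 for the ratio (12 ES-only). The EB minus ES share in runs was -2.31 points at 2 log2 units and -2.03 for the ratio, and ran from -4.28 to -2.70 without 1 array. Its contrast with the nearer part was 6.46 for the ratio, and 4.91 to 5.74 without 1 array. With the farther part it was -0.49 at 2 log2 units and -0.48 for the ratio, and -1.47 to -0.73 without 1 array. The mean 4C signal differed by -0.020 by the probe median and by -0.19 to -0.074 without 1 array. The ratio differed by -0.16 to 0.054 without 1 array. All 16 sites read on the same probes stayed ES-only after normexp or quantile normalization, and 11 did for the ratio. The sites were chosen on these same arrays and probes, which favoured that outcome, so it is no separate support.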

Other observations

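Of the 5859 probes that lay in no run on any array, 46 and 94 were positive on ES replicates 1 and 2, and 13 and 98 on EB replicates 1 and 2. ES replicate 2 and EB replicate 2 had 41 positive probes in common (43.6% and 41.8% of each set), whereas ES replicate 1 and EB replicate 1 had 4 (8.70% and 30.8%). The ES arrays had 12 in common (26.1% of replicate 1 and 12.8% of replicate 2), and the EB arrays 4 (30.8% and 4.08%). Across numbers, ES replicate 2 and EB replicate 1 shared 6 (6.38% and 46.2%), and ES replicate 1 and EB replicate 2 shared 5 (10.9% and 5.10%). Of these probes, 2 were positive on all 4 arrays. The first, at 137784393, had 1.48 and 4.33 log2 units in ES against 2.75 and 3.01 in EB, and the second, at 137571543, had 1.05 and 2.82 in ES against 1.79 and 2.85 in EB. All positive probes outside runs made up 1.21% and 1.54% of the stretch in ES against 0.212% and 1.67% in EB. Outside the distal region these shares were 0.841% and 1.16% in ES and, in EB, 0.464% and 1.35%.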
